A study of Mus musculus with 5 samples.

Results

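Xdh encodes xanthine oxidoreductase, the enzyme of purine breakdown that turns hypoxanthine into xanthine and xanthine into uric acid. It was examined in mouse heart together with 9 further genes of purine handling, Uox, Urad, Ada, Adk, Nt5e, Entpd1, Ampd3, Hprt and Gda. The 10 genes were taken by symbol from the 22180 symbols that had a probe of their own on the array. Each had exactly 1 such probe, so no choice between probes was needed. Xdh and Urad were selected on measured values, since in these same arrays their groups were apart with little spread, and the others act in the same pathway. All differences of the 10 genes between the groups are therefore descriptions. Where the test over all genes includes them, its result is not independent of this choice.

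Hearts of wild-type C57Bl6J mice were taken at zeitgeber time 12, the hour being counted from lights on. Each was perfused outside the body on a Langendorff apparatus, stabilised for 20 min, kept without flow for 20 min, reperfused for 20 min and frozen. In the treated group (n = 3) an antagonist of REV-ERB alpha, a repressor of the circadian clock, had been injected intraperitoneally at 10 µM 4 h and 1 h before the procedure. The control group (n = 2), named sham by the labels, had the same procedure but no antagonist. The compound, the vehicle, and the age and sex of the mice are not given in the labels used here. All 5 hearts were ischemic and reperfused, so no value separates the effect of ischemia itself.

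In a heart without oxygen, ATP falls to AMP, and AMP is taken apart to adenosine, inosine, hypoxanthine and xanthine. Xanthine oxidoreductase then meets these bases when flow returns, and its oxidase form passes electrons to oxygen, which has made it a long-studied source of superoxide and hydrogen peroxide at reperfusion. Adenosine formed on the way is itself a signal that widens coronary vessels and slows the beat. Other enzymes return purines to the nucleotide pool, and in mice, unlike in humans, uric acid is broken down further.

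The values are log2 expression values of whole-heart RNA, and each difference is the antagonist mean minus the sham mean on that scale. Array medians lay between 3.92 and 3.95. Sham replicate 1 and antagonist replicate 2 stood apart from the rest. Correlations over all probes were 0.986 to 0.987 for pairs with sham replicate 1 and 0.987 to 0.990 for the other pairs, and antagonist replicate 2 held the highest value of 5 of 6 atrial, 6 of 8 adipocyte and 6 of 6 mesothelial markers. The heart muscle markers were at a mean log2 level of 11.5 to 11.6 on every array. Many values in the table are exactly equal between arrays. Among 15294 genes tested, 73.9% shared a value between at least 2 arrays, as did 5 of the 10 purine genes.

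Of the 10 genes, 7 had a higher mean with the antagonist, 2 a lower mean and 1 the same value throughout. Among all tested genes 47.7% had a higher mean. For 5 genes (Xdh, Nt5e, Gda, Ampd3 and Urad) every antagonist heart lay above both sham hearts, and for 0 genes every antagonist heart lay below. Over all tested genes the groups did not overlap in 12.5%, and all antagonist hearts were higher in 6.19%. The genes were chosen with this contrast known, 9 of the 10 reached the level filter of 3.42, and the gap between the groups was as small as 0.0036 for Nt5e. A difference above 0.5 was found for Gda, Nt5e and Xdh, and for 0.713% of all tested genes one of at least 0.5. The median difference of the 9 genes tested was 0.12, and that of all 15294 was 0. With limma 0 of 15294 genes, or 0%, passed an adjusted p under 0.05, and none of the 9 was among them; 704 genes, or 4.60%, had an unadjusted p under 0.05. A change in the share of a cell type and a change in RNA per cell cannot be told apart in whole-heart RNA.

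**Figure D1:**
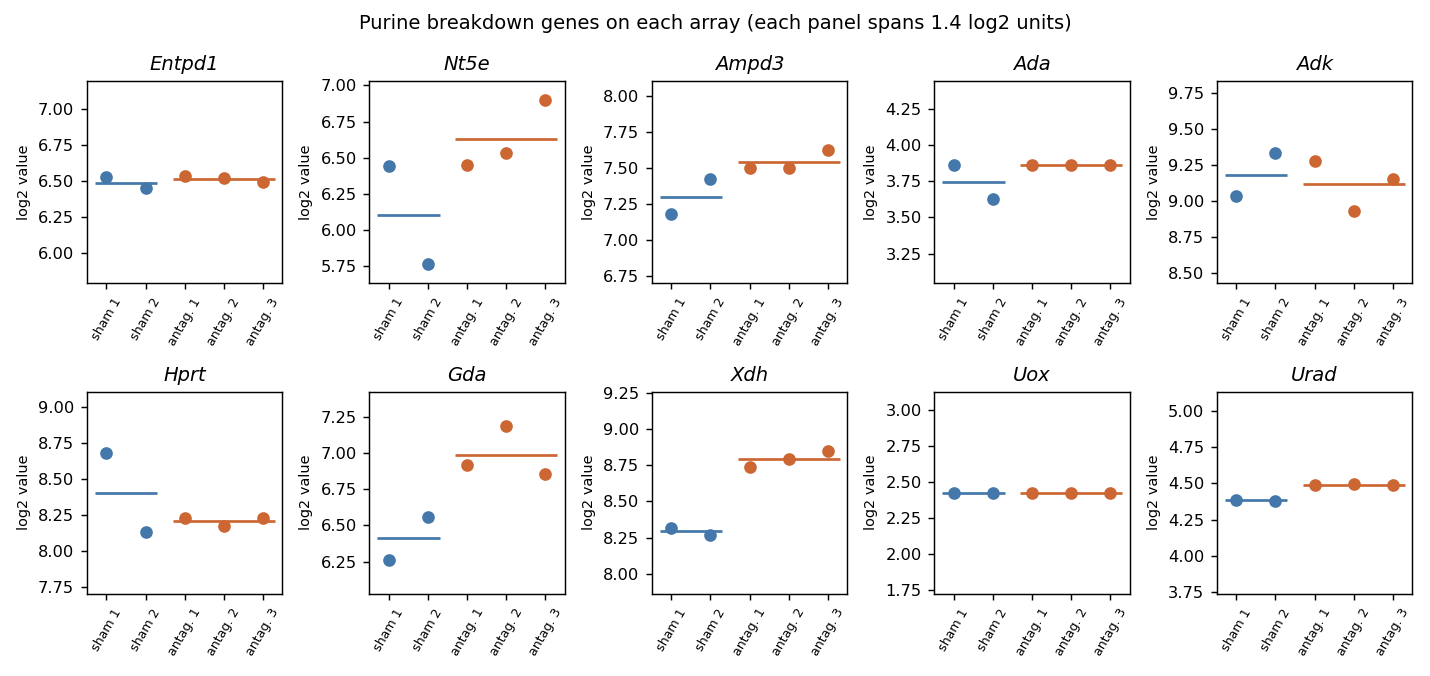
Log2 value (vertical axis) of each of the 10 genes on each of the 5 arrays, sham in blue and antagonist in orange, with a line at each group mean. Every panel spans 1.4 log2 units, so heights can be compared as differences but not as levels between genes. Xdh, Gda, Ampd3, Nt5e and Urad have all antagonist points above both sham points, while Uox is flat at 2.42.

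Xdh values lay apart between the groups, with little spread within either. Its value was 8.32 in sham replicate 1 and 8.27 in sham replicate 2. With the antagonist it was 8.74, 8.79 and 8.85 in replicates 1, 2 and 3. All antagonist hearts were thus high and both sham hearts low, and the gap of 0.42 between the lowest antagonist and the highest sham heart was 3.75 times the wider of the within-group ranges (0.11). The means were 8.80 ± 0.06 (SD, n = 3) and 8.29 ± 0.03 (SD, n = 2), a difference of 0.50 ± 0.04 (SE) or 1.42-fold. Leaving out each array in turn kept the difference between 0.47 and 0.53, and without antagonist replicate 2 it was 0.50. Of the tested genes 0.693% had a larger upward difference than Xdh. Because Xdh was selected for groups apart with little spread, the gap, the SE and this share restate that choice. They say little about how hearts vary. In the heart Xdh is known mainly from the capillary endothelium. The 10 endothelial markers had mean levels of 7.71 and 7.86 in sham and 7.82 to 7.85 with the antagonist, with 7 higher and 3 lower, and none lay below the level filter. Among them the differences ran from -0.23 for Cdh5, the junction cadherin of endothelium, to 0.24 for Flt1, a receptor for vascular endothelial growth factor. Flt1, like Xdh, was higher in all antagonist hearts than in both sham hearts, whereas Cdh5 was lower in all antagonist hearts. The part of endothelial content in the Xdh difference was not tested.

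The genes whose values ran closest to those of Xdh were ranked by the root mean square difference of centred values over the 5 arrays, among 15293 genes. The nearest was Rnf144b, a ubiquitin ligase gene, at 0.054 log2 units. Rsph6a, a radial spoke gene, followed at 0.057 and P4ha1, the catalytic subunit gene of a collagen prolyl hydroxylase, at 0.059. The small nucleolar RNA gene Snord8 (0.065) and the metallothionein gene Mt2 (0.080) completed the 5. In each of the 5 all antagonist hearts were higher than both sham hearts, which follows from their being chosen for likeness to Xdh. Their differences ran from 0.42 for Rsph6a to 0.52 for Mt2.

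**Figure D2:**
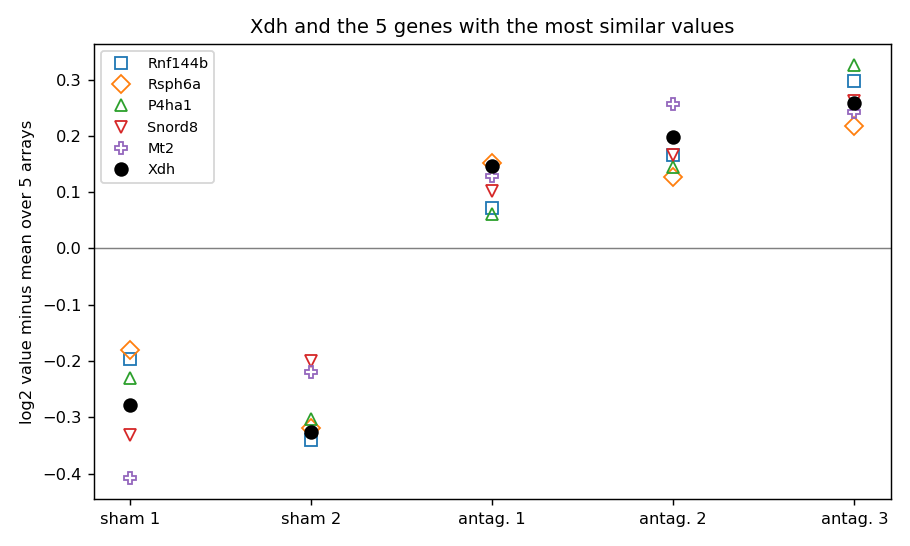
Log2 value minus the gene's own mean over the 5 arrays (vertical axis), for Xdh in black and the 5 nearest genes in open symbols, by array. Xdh runs from -0.33 in sham replicate 2 to 0.26 in antagonist replicate 3, and the other genes follow within 0.13 log2 units on each array.

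The step that feeds xanthine to Xdh from guanine is made by guanine deaminase, encoded by Gda. Gda had the largest mean difference of the 10 genes. It measured 6.26 and 6.56 in sham replicates 1 and 2, and 6.92, 7.19 and 6.86 in antagonist replicates 1, 2 and 3. The groups did not overlap, antagonist replicate 2 was the highest heart and sham replicate 1 the lowest. The means were 6.99 ± 0.18 (SD, n = 3) and 6.41 ± 0.21 (SD, n = 2), a difference of 0.58 ± 0.15 (SE) or 1.49-fold. Without antagonist replicate 2 the difference was 0.48, and without sham replicate 1 it was 0.43.

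Nucleotides outside the cell are broken down by a pair of surface enzymes. Entpd1 encodes CD39, which strips ATP and ADP to AMP, and Nt5e encodes CD73, which turns AMP into adenosine. Entpd1 measured 6.53 and 6.45 in sham and 6.53, 6.52 and 6.49 with the antagonist. These groups overlapped, all 5 values lay within 0.08 log2 units, and the difference was 0.03 ± 0.03 (SE). Its sign turned without sham replicate 2 (-0.01). Nt5e measured 6.442 and 5.762 in sham replicates 1 and 2, and 6.446, 6.532 and 6.899 in antagonist replicates 1, 2 and 3. Sham replicate 2 was the low heart and antagonist replicate 3 the high one, while sham replicate 1 lay 0.0036 below antagonist replicate 1. The mean difference of 0.52 ± 0.28 (SE), or 1.44-fold, was therefore set against a sham spread of 0.48 (SD, n = 2) and an antagonist spread of 0.24 (SD, n = 3). It was 0.18 without sham replicate 2 and 0.86 without sham replicate 1.

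Inside the cell AMP is either deaminated to IMP or cut to adenosine. Ampd3 encodes the AMP deaminase of red cells and of several other tissues. It measured 7.18 and 7.42 in sham replicates 1 and 2, and 7.50, 7.50 and 7.62 with the antagonist, the values of antagonist replicates 1 and 2 being exactly equal. The groups did not overlap, with a gap of 0.08, and the difference was 0.24 ± 0.09 (SE) or 1.18-fold. It was 0.12 without sham replicate 1 and was 0.36 without sham replicate 2. Of 6 red cell precursor markers 2 had a probe of their own symbol. Epb42 lay below the level filter and the anion exchanger gene Slc4a1 was at 4.28 in both sham hearts and at 4.36, 4.38 and 4.29 with the antagonist. Its groups did not overlap either, and its part in the Ampd3 difference was not tested.

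Adenosine is deaminated to inosine by adenosine deaminase (Ada) or returned to AMP by adenosine kinase (Adk). Ada was at 3.86 on 4 arrays with exactly the same value, sham replicate 1 among them, and at 3.63 in sham replicate 2. The whole Ada difference of 0.12 came from that array, and without it the difference was 0. Adk measured 9.03 and 9.33 in sham and 9.28, 8.93 and 9.15 with the antagonist. Its groups overlapped, the difference was -0.06 ± 0.16 (SE), and the sign turned without sham replicate 2 (0.09) or antagonist replicate 2 (0.03). Hprt encodes the salvage enzyme that returns hypoxanthine and guanine to nucleotides and so competes with Xdh for hypoxanthine. It measured 8.68 in sham replicate 1, 8.13 in sham replicate 2, and 8.23, 8.18 and 8.23 with the antagonist. Sham replicate 1 was high and the other 4 hearts lay within 0.10 log2 units. The mean difference of -0.19 ± 0.19 (SE) became 0.08 without that array and -0.47 without sham replicate 2.

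Uric acid is oxidised in peroxisomes by urate oxidase (Uox), and Urad encodes the decarboxylase of the step that yields allantoin. Both are best known as liver enzymes. Uox had the same value of 2.42 on every array, below the level filter, and was not tested. Urad measured 4.39 and 4.38 in sham and 4.49 on each antagonist array, with exactly equal values on antagonist replicates 1 and 3. Its groups did not overlap, and the difference was 0.11 ± 0.01 (SE) or 1.08-fold, with a range of 0.10 to 0.11 when single arrays were left out. With tied values this SE says little about how hearts vary. Of 6 hepatocyte markers 3 lay below the level filter, and their mean log2 level was 3.50 and 3.38 in sham and 3.50 to 3.53 with the antagonist.

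**Figure D3:**
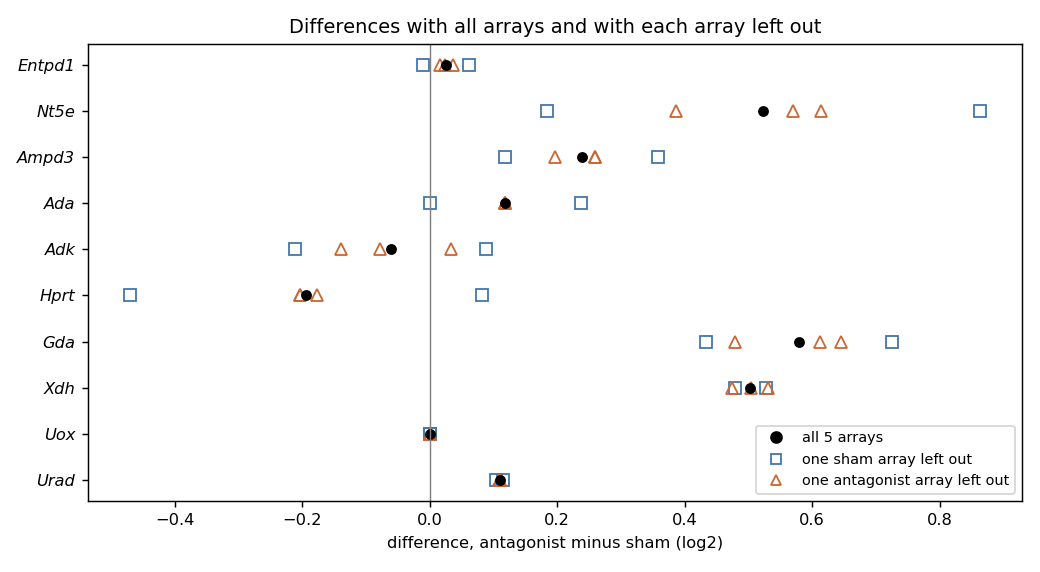
Difference between antagonist and sham means in log2 units (horizontal axis) for each gene, from all 5 arrays (black), with a sham array left out (blue squares) and with an antagonist array left out (orange triangles). Xdh stays between 0.47 and 0.53 and Urad near 0.11, whereas Nt5e runs from 0.18 to 0.86 and Hprt from -0.47 to 0.08.

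Promoter sequence was looked at because REV-ERB alpha binds DNA directly. RefSeq windows of build GRCm38.p6, from 250 bases before to 50 after a transcript start, were at hand for 9 of the 10 genes (13 windows), without Xdh. The element bound by REV-ERB and ROR receptors, searched by its core TAGGTCA on both strands, was in 0 of the 13 and in 2.61% of all 32851 windows. The shorter nuclear receptor core AGGTCA, which the first contains, was in 0 of the 13 and in 16.3% of all. The E-box CACGTG, bound by CLOCK and BMAL1, was in 1 of the 13 (an Ampd3 window) and in 7.15% of all. The hypoxia response core ACGTG, which every such E-box contains, was in 2 of the 13 (the same Ampd3 window and Gda) and in 19.6% of all. The sequences shown are those of Gda and Nt5e, which had the largest differences among genes with a window, and of the Ampd3 window with the E-box. Each is the 250 bases before the start, read along the gene, with matches in capitals. The Gda sequence is chr19:21472662-21472911, minus strand, the Nt5e sequence chr9:88327359-88327608, plus strand, and the Ampd3 sequence chr7:110772354-110772603, plus strand. In Gda the capitals mark the hypoxia response core on the opposite strand, in Ampd3 the E-box, and Nt5e has no match. A match is only a run of letters and was not set against the expression values.
Gda: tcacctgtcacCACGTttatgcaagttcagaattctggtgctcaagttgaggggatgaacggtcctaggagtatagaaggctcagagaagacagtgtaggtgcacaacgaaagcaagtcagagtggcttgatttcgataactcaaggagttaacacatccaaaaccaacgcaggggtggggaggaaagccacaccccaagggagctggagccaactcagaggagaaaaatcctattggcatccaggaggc
Nt5e: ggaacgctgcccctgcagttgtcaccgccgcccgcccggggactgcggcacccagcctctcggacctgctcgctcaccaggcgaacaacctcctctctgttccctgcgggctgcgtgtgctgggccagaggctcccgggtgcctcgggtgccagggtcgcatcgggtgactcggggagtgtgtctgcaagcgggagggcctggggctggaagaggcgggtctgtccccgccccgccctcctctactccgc
Ampd3: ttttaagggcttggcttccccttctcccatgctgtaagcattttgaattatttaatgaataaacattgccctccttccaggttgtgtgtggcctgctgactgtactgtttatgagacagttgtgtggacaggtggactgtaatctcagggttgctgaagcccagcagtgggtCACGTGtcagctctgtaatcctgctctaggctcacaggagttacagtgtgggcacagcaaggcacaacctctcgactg

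The other genes of purine metabolism were read from 11 lists by role, with 85 genes in all. A probe of their own symbol was found for 71, and 58 reached the level filter. With limma 0 of the 58 passed in either direction, and 1 had an unadjusted p under 0.05 (4.60% of all tested genes did), with a smallest adjusted p of 0.64. Of these genes 35 were higher, 20 lower and 3 equal, with a median difference of 0.02, beside 47.7% higher among all tested genes. The groups did not overlap for 4 of them, Pnp and Atic upward and Ppat and Gphn downward, beside 12.5% of all tested genes.

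The only gene of the 58 with a difference over 0.5 was Pnp, purine nucleoside phosphorylase, which splits inosine and guanosine into the bases that Xdh and Gda act on. It measured 4.68 and 4.77 in sham and 5.05, 5.65 and 5.06 with the antagonist. All antagonist hearts were higher and antagonist replicate 2 was the highest, and the difference of 0.53 ± 0.23 (SE) was 0.33 without that array. Its limma adjusted p was 0.64. The other AMP deaminase gene that was tested, Ampd2, differed by 0.05, or 0.0056 without sham replicate 1 and 0.09 without sham replicate 2, and a second probe of it had the same value on every array.

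The remaining nucleotidases went both ways. Of 7 tested genes of the ectonucleotidase families, some of which act inside the cell, 4 were higher and 3 lower. Entpd6 was at 0.22, Enpp3 at -0.15 and Entpd5 at 0.11. For Entpd6 and Entpd5 the sign turned without sham replicate 1 (-0.11 and -0.13), and Enpp3 was at -0.06 without sham replicate 1 and -0.23 without sham replicate 2. Of 6 intracellular nucleotidase genes 3 were higher and 3 lower, with Nt5c2 at 0.07 and Nt5c1a at -0.05. Nt5c2 was at 0.03 without sham replicate 1 and 0.12 without sham replicate 2, and Nt5c1a at -0.31 and 0.20. The adenylate kinases, which balance AMP, ADP and ATP, had 3 tested genes with differences from 0.01 to 0.09. The highest was that of Ak4, which was at -0.05 without sham replicate 1. Ak8 followed at 0.03, and its value departed from 4.43 on antagonist replicate 2 alone.

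Salvage and synthesis genes had medians near 0. Among 8 salvage genes 4 were higher and 4 lower, and Dguok, a mitochondrial deoxyguanosine kinase, Mtap, which recovers adenine from methylthioadenosine, and Prps1, which makes the ribose donor, were at -0.15, -0.14 and -0.08. Without antagonist replicate 3 Dguok was at -0.05, without sham replicate 1 Mtap was at -0.05, and Prps1 turned to 0.04 without antagonist replicate 2. Among 9 genes of new purine synthesis 5 were higher and 4 lower. Ppat, the amidotransferase of the committed step, measured 7.40 and 7.52 in sham and 7.24, 7.24 and 7.25 with the antagonist. Both sham hearts were above all antagonist hearts, and the difference was -0.22 ± 0.04 (SE, limma adjusted p = 0.64). Atic, which makes the last steps to IMP, differed the other way, by 0.22 ± 0.08 (SE, limma adjusted p = 0.64), or 0.10 without sham replicate 1, with 6.11 and 6.35 in sham against 6.44 to 6.46. Adsl, adenylosuccinate lyase, was at 0.12, or 0.0028 without sham replicate 1.

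Xanthine oxidoreductase needs a molybdenum cofactor, and 10 genes of that cofactor and its other enzymes were tested, 7 higher, 2 lower and 1 equal. Aox1, an aldehyde oxidase close in structure to Xdh, differed by 0.18 ± 0.13 (SE), or 0.08 without antagonist replicate 3. Mocos, the sulfurase that arms the cofactor in both enzymes, differed by 0.05, with the sign turned without antagonist replicate 2 (-0.01). Gphn, which inserts the molybdenum, differed by -0.14, or -0.06 without sham replicate 1. For the carriers, 3 nucleoside carrier genes were higher, 3 lower and 1 equal. Slc29a1, the main equilibrative nucleoside transporter, differed by 0.24 (0.09 without sham replicate 1), Slc29a3 by -0.14 and Slc28a2 by -0.03, with the sign of Slc28a2 turned without sham replicate 2 (0.13) or antagonist replicate 1 (0.04). The second probe of Slc29a3 gave 0.13, and the first gave 0 without sham replicate 1. Of 5 urate carrier genes 3 were higher and 1 lower, with Slc22a12 at -0.08 and Slc22a6 at 0.07, or -0.0025 and 0 when sham replicate 1 was left out. Urah, a further urate enzyme, differed by 0.04, and its value departed from 4.03 on antagonist replicate 1 alone. The 1 adenosine receptor gene with a probe of its own, Adora3, had the same value of 3.42 on every array and did not reach the level filter.

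**Figure D4:**
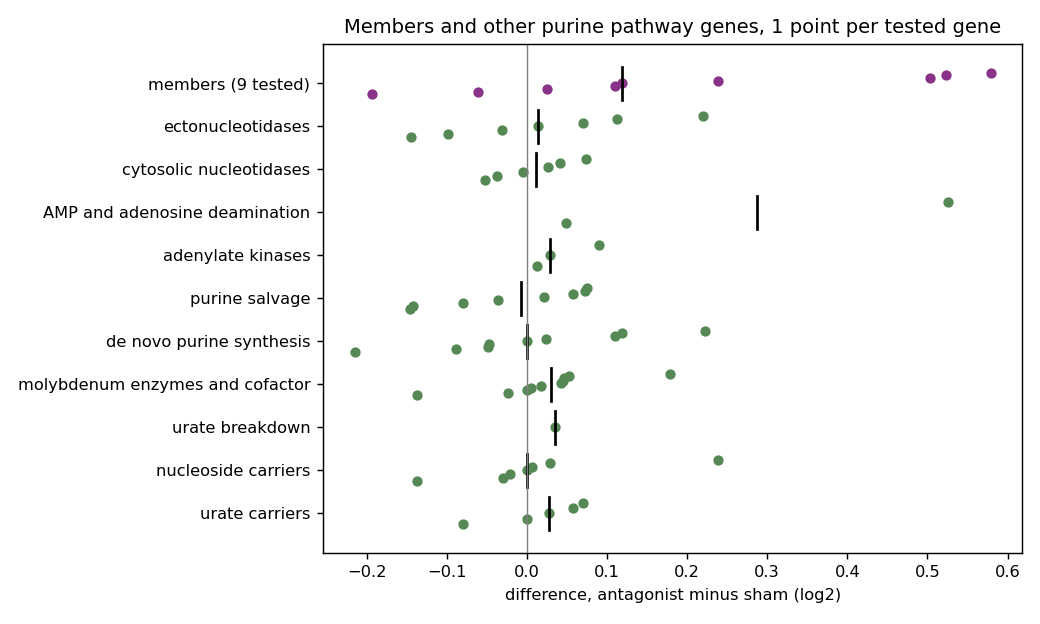
Difference between antagonist and sham means in log2 units (horizontal axis), 1 point per tested gene, for the purine breakdown genes (purple, 9 tested) and 10 lists of other purine genes with tested members (green), with a bar at each median. Gda, Nt5e and Xdh lie at 0.50 to 0.58, and of the other lists only Pnp reaches 0.53.

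Cell type markers differed alongside some of these genes. The myeloid list had 7 of 10 markers higher and 3 lower, with mean log2 levels of 6.59 and 6.72 in sham and 6.72 to 6.90 with the antagonist. The fibroblast list had 5 of 6 lower and 0 higher, with 7.68 and 7.93 in sham and 7.54 to 7.70. The adipocyte list was at 5.06 to 5.27 on 4 arrays and at 6.70 on antagonist replicate 2, and the atrial list at 7.25 to 7.80 on 4 arrays and 9.79 on that one. The mesothelial list was at 4.17 to 4.26 on 4 arrays and 5.08 on that one. Gda, Pnp and Urad were highest on antagonist replicate 2, whereas Xdh, Nt5e and Ampd3 were highest on antagonist replicate 3, where the adipocyte mean was 5.27 and the atrial mean 7.40. The differences of Xdh, Nt5e, Ampd3 and Urad were 0.50, 0.57, 0.26 and 0.11 without antagonist replicate 2. The part of these cell types in the other differences was not tested.

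**Figure D5:**
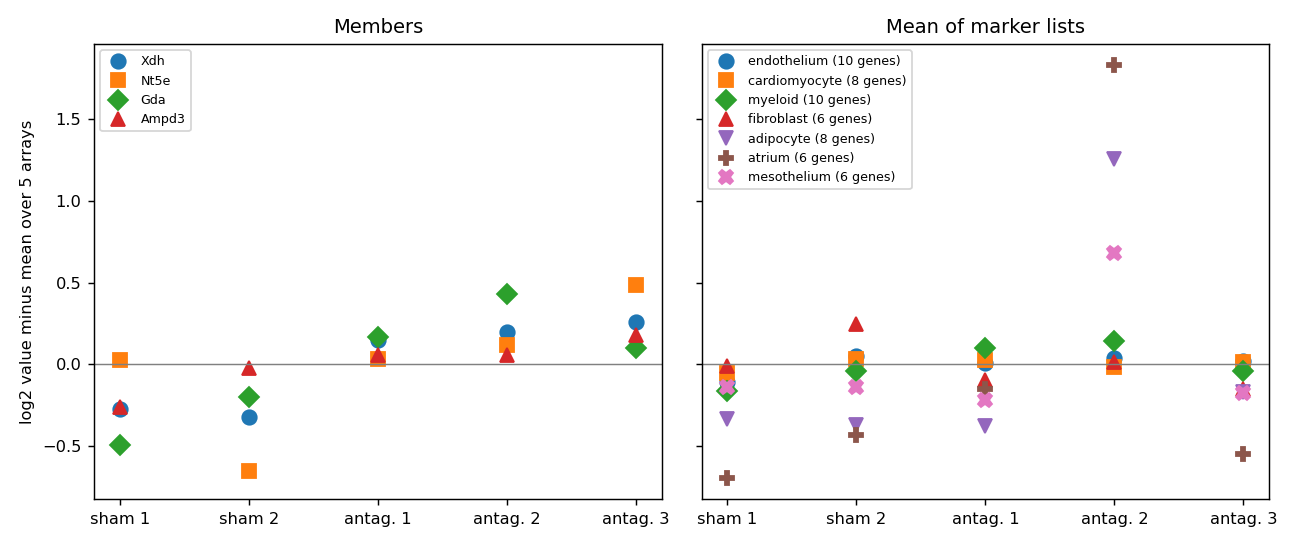
Log2 value minus its mean over the 5 arrays (vertical axis) by array, for Xdh, Nt5e, Gda and Ampd3 (left) and for the mean of each cell type marker list (right). The atrial, adipocyte and mesothelial lists are high on antagonist replicate 2. Xdh, Nt5e, Gda and Ampd3 are each above their own mean on all 3 antagonist arrays, and Nt5e also on sham replicate 1.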

How the data were processed

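Total RNA (300 ng a heart) was hybridised to Affymetrix whole-transcript arrays. The deposited values are log2 expression values made by the authors with RMA, per the submitters' processing notes; its version, probe set library and genome build are not stated in the labels. Of 41345 probes, 23521 had exactly 1 symbol in the platform annotation, 1814 had several and 16010 were not listed. For each of 22180 symbols the probe of highest mean was kept, and the 15294 genes whose mean reached the 40th percentile over all probes (3.42) were tested.

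Groups (sham n = 2, antagonist n = 3) came from the labels. The test was limma's (version 3.58.1, R 4.3.3, two-sided, without covariates, moderated by eBayes, Benjamini-Hochberg over all tested genes, threshold 0.05). It was checked on simulated data that were normal and free of exact ties. In the measured values 73.9% of tested genes shared a value between at least 2 arrays, which the check does not cover. The SE is limma's moderated SE. The labels call arrays biological replicates. Their number limits the precision.

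The members and lists were chosen with earlier results of these data known. Named genes are all members, the 2 largest differences of each list (3 where over 6 genes were tested) and the 5 genes nearest to Xdh, predicted genes left out. Marker genes are given as list summaries, and those named were chosen after their values were seen. Alternatives covered the level filter, array scaling, probe choice, eBayes options, array weights, a replicate block and each array left out.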

Additional observations from a re-analysis of the deposited data

How the results depend on the processing

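With all 5 arrays, 0 genes and 0 purine pathway genes passed limma's adjusted p under 0.05 with no level filter, the 60th percentile filter, a second quantile normalization, median centring, the mean of all probes, eBayes with a trend or robust, and array weights. Leaving out single arrays gave 0 to 2058 genes and 0 to 8 purine pathway genes. The calls arose where a lone sham array was left (1319 and 5 without sham replicate 1, 2058 and 8 without sham replicate 2), which is assumed to vary like the antagonist arrays. These counts are out of 15294 tested genes and 58 tested pathway genes. In both fits the share of pathway genes called was close to that of all tested genes, so the calls do not set the pathway apart. Of the 10 members, Urad and Ada were among the genes called without sham replicate 1 and Urad and Hprt without sham replicate 2. All had tied values on antagonist arrays, and Xdh was in neither set. The members are too few for their share to be compared with that of all tested genes. Exact ties among antagonist arrays were present in 92.6% and 78.6% of the genes called, compared with 53.1% of those tested. The count of purine breakdown genes whose groups did not overlap, an alternative chosen after seeing the data, was 5 without any one antagonist array and 5 or 6 under the scalings. It was 9 without sham replicate 1 and 6 without sham replicate 2, where the share of all tested genes without overlap rose from 12.5% to 42.1% and 52.7%. Without an antagonist array that share was 17.6% to 17.9%, and under the scalings it was not counted. Among the scalings the count of 6 came with median centring, which shifts each array by its own amount and can part exact ties.

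With the replicate number as a block 0 genes and 0 purine pathway genes passed, and the Xdh difference was 0.47, that without antagonist replicate 3, whose number has no sham partner. Deviations of same-numbered arrays correlated at -0.11 and 0.03. With 2 sham arrays the sham deviations mirror each other, so these values cannot tell whether same-numbered arrays were paired. Xdh lay between 0.47 and 0.53 in 10 alternatives and kept its sign in all of them, as did Nt5e, Gda, Ampd3 and Urad. In these 5 genes every antagonist value was above both sham values, so leaving out an array could not turn the sign. Taking the mean of all probes could not either, since each gene had 1 probe. Ada, Adk, Entpd1 and Hprt came to 0 or changed sign when single arrays were left out, as given above. Uox lay below the level filter and Ada, at a mean of 3.82, just above it, and the 2 sham arrays limit the precision of every difference.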
